A study of Mus musculus with 8 samples.

Results

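The 9 complement genes described here were C1qa, C1qb and C1qc, which encode the chains of C1q, the components and inhibitor C3, C4b, Cfb and Serping1, and the receptor genes C3ar1 and C5ar1. They were taken as a list of gene symbols, by a rule that names them without a threshold on their values, from the 24421 genes of a bulk RNA-seq count table, and all 9 were among the 14468 genes with enough counts to be tested. RNA came from 8 whole MC38 tumors, a mouse colon adenocarcinoma line, grown after injection of 250000 cells into 9-week-old female C57BL/6 mice carrying the Kaede transgene, whose fluorescent protein turns from green to red under violet light. On day 10, at a diameter of about 5 mm, 4 tumors received violet light of 405 nm for 3 min (photoconverted) and 4 received none (control). All tumors were taken 5 h later, so that both groups shared the transgene, the tumor line and the time of collection and differed by label in the light exposure. The labels name 4 numbered tumors in each group without stating whether each came from its own mouse or experiment, and p-values therefore measure the spread between these tumors.

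Complement is a cascade of secreted proteins that marks targets for uptake and lysis. C1q binds immune complexes and dying cells and starts the classical pathway through the proteases C1r and C1s, which cleave C4 and C2, and all routes meet at the cleavage of C3. The small fragments released from C3 and C5 act on G protein-coupled receptors of myeloid cells. Most circulating complement is made by hepatocytes, whereas C1q comes largely from tissue macrophages and dendritic cells, and fibroblasts are a known local source of C3, C4 and C1 inhibitor.

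Libraries held between 12576615 and 35844417 counts. The share of counts on Rn45s, the precursor of ribosomal RNA, was 21.9% in photoconverted tumor 4, 35.7% in control tumor 2 and 23.2% in control tumor 4 and lay between 2.70% and 9.65% in the other 5 tumors. Fold changes, group overlaps and ratios are also given for the other 5 tumors alone, whereas the correlations are not. Hepatocyte markers summed to between 1.23 and 2.68 CPM (read counts scaled to a common library size by TMM), with Alb, Ttr and Serpina1a at 0 in at least 1 tumor. Epithelial markers were also near their floor, summing to between 2.14 and 5.37 CPM with Krt18 and Krt19 at 0 in at least 1 tumor, although MC38 is described as an adenocarcinoma line. Markers of macrophages (10 of 10 genes tested, between 248 and 759 CPM in sum) and of fibroblasts (10 of 10 tested, between 3470 and 12600 CPM) were present in every tumor. In whole tumors, fewer cells of a type and less RNA per cell cannot be told apart.

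None of the complement genes differed between photoconverted and control tumors beyond the spread between tumors. By edgeR's quasi-likelihood test, 0 of the 9 passed an adjusted p of 0.05, and each had an adjusted p of 0.999. The same test called 0% of the 14468 genes, and at an unadjusted p under 0.05 it gave 0 of the 9 genes and 2.23% of all genes. DESeq2 also called 0 of the 9, with 0.117% of all genes called, and gave 0 of the 9 and 2.77% of all genes at an unadjusted p under 0.05. The photoconverted and control CPM ranges overlapped for all 9 genes, and 1.33% of all genes had ranges without overlap. The fold change was above 0 for 6 of the 9 (46.8% of all genes), with a median of 0.20 on the log2 scale against -0.01 over all genes tested. The 3 genes below 0 were the C1q genes, which put the tumors in the same order and so are not 3 separate results. With 1 tumor left out, the count above 0 ran from 3 of 9 to 9 of 9. The 3 of 9 came without control tumor 4 (47.9% of all genes) and the 9 of 9 without control tumor 2 (46.4%).

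The 3 C1q genes lie side by side on the minus strand of chromosome 4, within 18.7 kb (chr4:136880129-136898803, GRCm38) in the order C1qb, C1qc and C1qa. Their protein chains assemble together into the C1q molecule. C1qa was measured at 152, 127, 214 and 120 CPM in the photoconverted tumors, in the order of their numbers, against 193, 256, 165 and 95.8 CPM in the controls. The highest and the lowest value were both in control tumors, and the groups overlapped. The means were 153 ± 42.9 and 178 ± 66.6 CPM (SD, n = 4), a log2 fold change of -0.21 (SE 0.29, edgeR adjusted p = 0.999; exact permutation p = 0.686). C1qb ranged from 112 to 216 CPM in photoconverted and from 83.3 to 229 CPM in control tumors, with a log2 fold change of -0.07 (SE 0.31). C1qc ranged from 88.6 to 184 CPM and from 74.3 to 193 CPM, with a log2 fold change of -0.17 (SE 0.31). The 3 genes put the 8 tumors in one and the same order, from control tumor 2 and photoconverted tumor 3 at the top to photoconverted tumor 4 and control tumor 4 at the bottom.

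**Figure D1:**
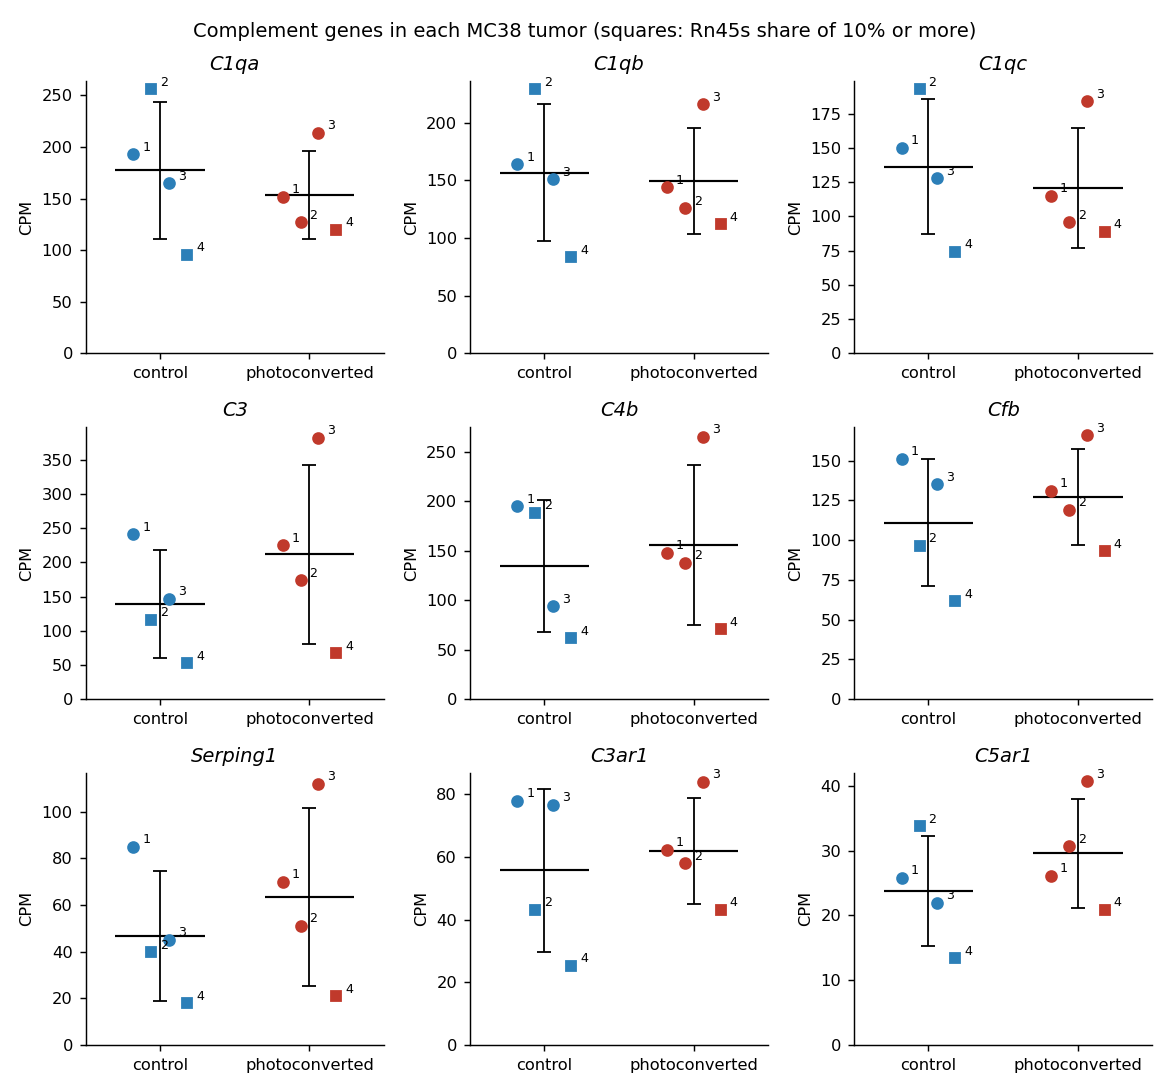
CPM of the 9 complement genes in each tumor, with a separate linear axis from 0 for each gene; numbers are replicate numbers, squares are the libraries with an Rn45s share of 10% or more, and horizontal lines and bars are the mean and SD of 4 tumors. The groups overlap in every panel, and control tumor 4 is the lowest point throughout.

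Because the C1q genes moved together, the sequence before their starts was read from RefSeq (GRCm38.p6), which covered 5 of the 9 genes. Of these, C5ar1 kept a stretch of only 48 bases outside annotated exons and was not searched. The window was the 250 bases before the start, restricted to bases outside annotated exons. For C1qb it is chr4:136886201-136886450 and for C1qc chr4:136893066-136893164, both on the minus strand, the latter 99 bases long and ending 151 bases before the RefSeq start. For this, 8 motifs were searched on both strands, and capitals mark every match.
C1qb: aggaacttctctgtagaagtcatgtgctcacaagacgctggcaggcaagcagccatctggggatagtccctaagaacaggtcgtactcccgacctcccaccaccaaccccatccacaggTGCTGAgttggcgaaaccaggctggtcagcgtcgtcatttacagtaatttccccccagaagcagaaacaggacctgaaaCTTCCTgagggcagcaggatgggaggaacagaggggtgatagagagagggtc
C1qc: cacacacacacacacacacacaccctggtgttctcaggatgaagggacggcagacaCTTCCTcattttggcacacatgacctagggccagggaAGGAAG
Both windows held the letters of an ETS factor motif (AGGAAG, or CTTCCT on the other strand), at 52 bases before the start of C1qb and at 194 and 157 bases before that of C1qc. ETS factors include the myeloid regulator PU.1. The same letters were found in 29.2% of 27025 mouse promoter windows of 250 bases and in 11.8% of windows of 99 bases. C1qb also held a MAF motif (TGCTGA) at 131 bases before its start, found in 15.8% of windows of 250 bases. A match describes letters and is not evidence of binding.

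Relative to C1qa in the same tumor, C1qb and C1qc varied least of all genes over the 8 tumors. The log2 ratio of counts within a library needs no library size, and its SD over 8 tumors was 0.09 for C1qb and 0.07 for C1qc, ranks 2 and 1 among 14467 genes, against a median of 0.57 over all genes. Among the components, the SD was above that median for C3 (0.76) and Serping1 (0.71) and below it for C4b (0.44) and Cfb (0.41), and 13.0% and 9.24% of genes had an SD as small as those of C4b and Cfb. Of the receptors, C3ar1 had an SD of 0.50 and C5ar1 of 0.32, and 2.56% of genes followed C1qa as closely as C5ar1 did. Over the 5 tumors of lower Rn45s share the SD was 0.10 for C1qb and 0.08 for C1qc, ranks 51 and 19, with a median of 0.35 over all genes. There Cfb and C3ar1 had an SD of 0.11 each, as small as in 0.622% and 0.532% of genes, while C3 (0.37), Serping1 (0.36), C5ar1 (0.36) and C4b (0.43) lay above the median. The log2 ratio of C1qb to C1qa was -0.08, -0.01, 0.01 and -0.10 after photoconversion against -0.24, -0.16, -0.13 and -0.20 in the controls. These ranges did not overlap and differed by 0.14 on the log2 scale (exact permutation p = 0.0286, the smallest that 4 against 4 tumors allow, adjusted p = 1.0 over 14467 genes). Ratios to C1qa without overlap were found for 0.622% of all genes.

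C3, the component at which the pathways meet (chr17:57203970-57228136, minus strand), spread more widely between tumors than any other of the 9 genes. It was measured at 225, 174, 382 and 67.0 CPM in the photoconverted tumors against 241, 116, 147 and 52.4 CPM in the controls. The highest tumor was 7.29-fold above the lowest, and the fourth tumor was the lowest in each group. The means were 212 ± 131 and 139 ± 78.6 CPM (SD, n = 4), a log2 fold change of 0.61 (SE 0.54, edgeR adjusted p = 0.999; exact permutation p = 0.457). Tumors of the same replicate number were also compared as blocks, a pairing that the labels do not state. The log2 fold change was then 0.55 (SE 0.21), with an unadjusted edgeR p of 0.0315 and an adjusted p of 0.792. In that fit 6.01% of all genes had an unadjusted p under 0.05 and 0% were called, and C3 was the 1 gene of the 9 under 0.05. Within the tumor, the log2 ratio of C3 to C1qa was 0.57, 0.45, 0.83 and -0.84 after photoconversion against 0.32, -1.14, -0.17 and -0.87 in the controls. The photoconverted tumor had the higher ratio in 4 of 4 same-numbered pairs (mean difference 0.72, exact sign-flip permutation p = 0.125, the smallest that 4 pairs allow), while the groups overlapped.

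Serping1, which encodes the C1 inhibitor (chr2:84765387-84775444, minus strand), put the tumors in the same order as C3. Its values were 69.8, 51.0, 112 and 20.8 CPM after photoconversion against 84.8, 39.7, 45.0 and 17.8 CPM in the controls. The groups overlapped, and photoconverted tumor 3 stood highest as it did for C3. The means were 63.5 ± 38.3 and 46.8 ± 27.9 CPM (SD, n = 4), a log2 fold change of 0.44 (SE 0.54, edgeR adjusted p = 0.999). Cfb, which encodes factor B of the alternative pathway (chr17:34856374-34862518, minus strand), was steadier, at 131, 119, 166 and 93.0 CPM against 151, 96.6, 135 and 61.4 CPM. Its ranges overlapped and its log2 fold change was 0.20 (SE 0.28). Most exon bases of Cfb also belong to the read-through gene Gm20547, which leaves the count of Cfb uncertain by the reads of that gene.

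C4b encodes complement C4 (chr17:34728380-34743882, minus strand) and has a near-identical neighbor, C4a. Of the 5773 stretches of 100 bases in C4b transcripts, 879 (15.2%) were also found in C4a, so that the division of counts between them is uncertain. C4b was measured at 148, 138, 265 and 70.7 CPM after photoconversion against 195, 188, 93.8 and 61.4 CPM in the controls. Control tumors 1 and 2 were above photoconverted tumors 1 and 2, control tumors 3 and 4 were below their photoconverted counterparts, and the groups overlapped. The log2 fold change was 0.21 (SE 0.45, edgeR adjusted p = 0.999). C4a made up between 14.4% and 20.7% of the counts of the pair.

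**Figure D2:**
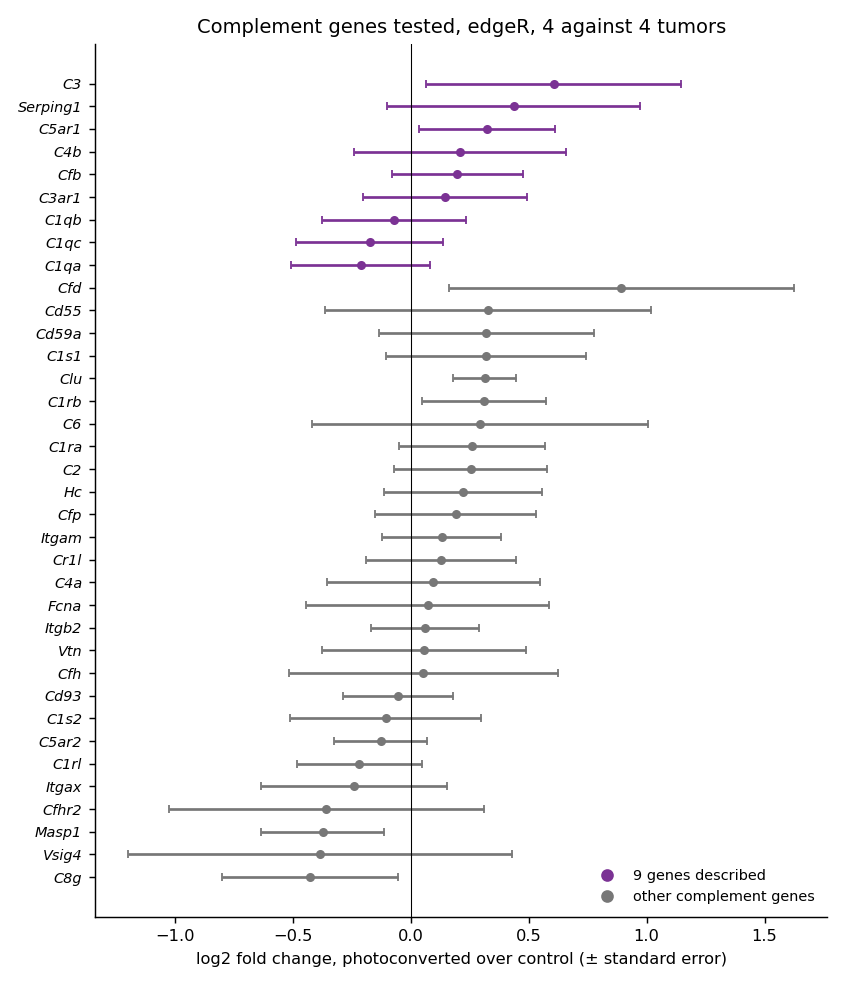
Log2 fold change of photoconverted over control tumors with its standard error (edgeR, 4 against 4 tumors) for the 9 genes described, in purple, and the 27 other complement genes tested, in grey. C3 is the highest of the 9 at 0.61 and C1qa the lowest at -0.21, and none passed the adjusted threshold.

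C3ar1 and C5ar1 encode the receptors of the C3 and C5 fragments C3a and C5a. C3ar1 (chr6:122847138-122856161, minus strand) was measured at 62.3, 58.0, 84.0 and 43.1 CPM after photoconversion against 77.9, 43.1, 76.7 and 25.2 CPM in the controls. The groups overlapped, and the log2 fold change was 0.15 (SE 0.35, edgeR adjusted p = 0.999; exact permutation p = 0.600). C5ar1 (chr7:16246743-16259540, minus strand) was measured at 26.1, 30.7, 40.7 and 20.9 CPM after photoconversion against 25.8, 33.8, 22.0 and 13.4 CPM in the controls. Its means were 29.6 ± 8.42 and 23.7 ± 8.47 CPM (SD, n = 4), with overlapping ranges and a log2 fold change of 0.32 (SE 0.29, edgeR adjusted p = 0.999; exact permutation p = 0.400).

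Set against C1qa in the same tumor, C5ar1 did not overlap between the groups. The log2 ratio of C5ar1 to C1qa was -2.54, -2.05, -2.39 and -2.52 in the photoconverted tumors against -2.91, -2.92, -2.91 and -2.83 in the controls. Every photoconverted tumor lay above every control tumor, and the control tumors lay close together. The means were -2.38 ± 0.23 and -2.89 ± 0.04 (SD, n = 4), a difference of 0.52 (exact permutation p = 0.0286, the smallest possible, adjusted p = 1.0 over 14467 genes). With C1qb or C1qc as the reference the groups also did not overlap, with differences of 0.38 and 0.51. These 2 genes followed C1qa closely over the tumors, so this nearly repeats the same comparison and is not separate support. C5ar1 was the 1 gene without overlap among the 6 components and receptors, and 0.622% of all genes had ratios to C1qa without overlap. Neutrophils also carry this receptor, and the 5 neutrophil markers in the table (Ly6g was not) summed to 57.9, 68.5, 104 and 18.3 CPM after photoconversion and to between 15.8 and 27.6 CPM in the controls. The part of these cells in the ratio was not tested. The ratio to C1qa was also higher on average in photoconverted tumors for Serping1 (0.57), Cfb (0.42), C3ar1 (0.42) and C4b (0.38), with overlapping groups and exact permutation p between 0.171 and 0.371.

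**Figure D3:**
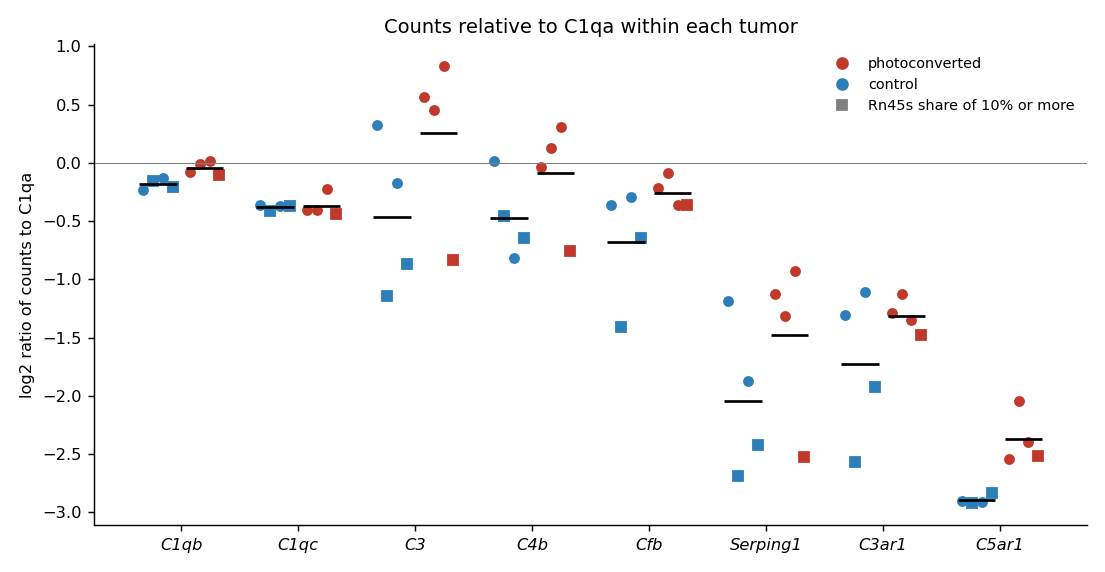
Log2 ratio of the counts of each gene to those of C1qa in the same tumor, with photoconverted tumors in red, control tumors in blue, squares for libraries with an Rn45s share of 10% or more and lines at the means of 4 tumors. C1qb and C1qc stay in a narrow band, C3 and Serping1 range most widely of those shown, and the groups are apart for C1qb and C5ar1.

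The genes also differed in how they stood in the 3 libraries with high Rn45s shares. C3 was at 52.4 to 116 CPM there and at 147 to 382 CPM in the other 5, and Serping1 at 17.8 to 39.7 against 45.0 to 112 CPM. Cfb and C3ar1 were also lower without overlap, at 61.4 to 96.6 against 119 to 166 CPM and at 25.2 to 43.1 against 58.0 to 84.0 CPM. The C1q genes, C4b and C5ar1 overlapped between these libraries through control tumor 2 alone, the highest of all tumors for C1qa, C1qb and C1qc. In photoconverted tumor 4 and control tumor 4 each of these genes was below all of the other 5 tumors. C1qa was at 120 and 95.8 CPM there against 127 CPM or more, C4b at 70.7 and 61.4 against 93.8 or more. C5ar1 was at 20.9 and 13.4 CPM against 22.0 CPM or more. The difference between the genes in these libraries thus rested on control tumor 2. Of all genes, 21.0% were lower and 23.4% higher in these 3 libraries without overlap, so that 4 of 9 is to be read against a large background. Relative to C1qa, C3, Serping1 and C3ar1 were lower without overlap in the same libraries, as were 4.60% of all genes. Control tumor 2 also had the highest sum of fibroblast markers (12600 CPM, against 3470 to 4950 CPM in the other tumors). By the mean log2 CPM of these markers, each relative to its own mean, it was not the highest. It stood at 0.305, below photoconverted tumor 3 (0.522) and control tumor 1 (0.398). The part of fibroblasts in the values of control tumor 2 was not tested. Among the 5 tumors with the lower Rn45s shares (3 photoconverted, 2 control), edgeR called 0 of the 9 genes and 0.275% of all genes, and gave 0 of the 9 and 10.5% of all genes at an unadjusted p under 0.05. In these 5 tumors C5ar1 had a log2 fold change of 0.44 and an unadjusted p of 0.0538 (edgeR), and C3ar1 had a log2 fold change of -0.18. The CPM ranges of 3 against 2 tumors did not overlap for 1 of the 9 genes (C5ar1) and for 28.4% of all genes. Ratios to C1qa did not overlap for 2 of the 6 components and receptors (C3 and C5ar1) and for 11.3% of all genes, with an exact permutation p of 0.1, the smallest possible there.

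**Figure D4:**
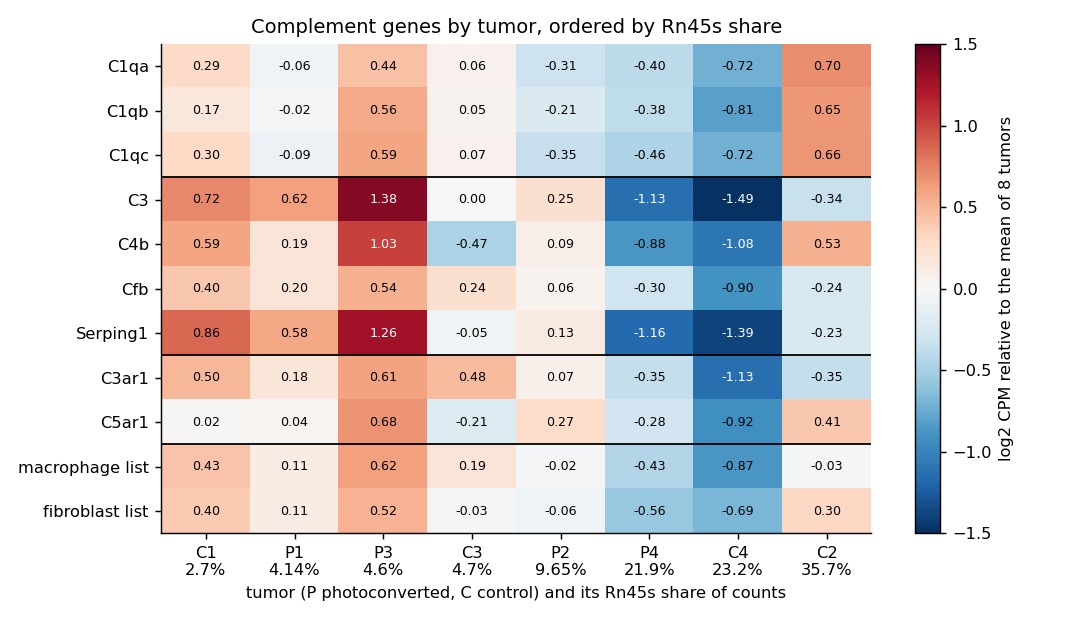
Log2 CPM of each gene relative to its mean over 8 tumors, with the mean of the macrophage and fibroblast marker lists below; tumors (P photoconverted, C control) run from left to right by rising Rn45s share. The C1q genes are highest in control tumor 2 at the right, where C3, Cfb, Serping1 and C3ar1 are below their means.

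Correlations across tumors were computed with C1qa, C3 and C5ar1 in turn. C1qa correlated over 8 tumors with C1qc (Pearson r = 0.992) and C1qb (r = 0.983), each with Spearman rho = 1.0 and an exact permutation p for r of 2.48e-05, the smallest possible, which adjusted over all genes was 0.0598. Without control tumors 2 and 4, the farthest from the median, r was 0.995 and 0.962. C3 correlated with Serping1 at r = 0.995 and rho = 1.0 (exact permutation, adjusted p = 0.0127), and at r = 0.990 without photoconverted tumor 3 and control tumor 4. Its correlation with Cfb was r = 0.937 (rho = 0.929, exact permutation, adjusted p = 0.0166) and with C3ar1 r = 0.893 (rho = 0.929, adjusted p = 0.0272), and with C4b r = 0.879 (rho = 0.857, adjusted p = 0.0397). Without the same 2 tumors these were 0.876, 0.767 and 0.698. In all, 4 of 8 genes passed with C3, as did 16.3% of all genes, and 0 of 8 with C1qa or C5ar1, as did 0% of all genes. Between C3 and C1qa r was 0.629 (rho = 0.571, exact permutation p = 0.0952), and it was 0.823 without control tumors 2 and 4 and 0.221 without photoconverted tumor 3 and control tumor 4, so that it rested on which tumors were included. With 5 and 3 tumors on either side of an Rn45s share of 10%, no correlation was computed within each, and the values share library scaling.

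The macrophage marker score had a higher r with C3, Cfb, Serping1 and C3ar1 than with the C1q genes in these 8 tumors, and the difference between these correlations was not tested. Its Pearson r was 0.972 with Cfb (rho = 1.0), 0.953 with Serping1 (rho = 0.929), 0.952 with C3ar1 (rho = 1.0) and 0.951 with C3 (rho = 0.929). With C4b it was 0.862 (adjusted p = 0.0388, exact permutation). With C1qa, C1qb and C1qc it was 0.763, 0.807 and 0.793, each with rho = 0.643 and an adjusted p of 0.0926, 0.0712 and 0.0712 (exact permutation). With C5ar1 it was 0.802 (rho = 0.548, adjusted p = 0.0770, exact permutation). In all, 5 of 9 genes passed an adjusted p of 0.05, as did 16.6% of all genes. Without photoconverted tumor 3 and control tumor 4, the farthest from the median, r was 0.915 for Serping1, 0.902 for Cfb and 0.883 for C3. It was 0.856 for C3ar1, 0.661 for C4b, 0.173 for C5ar1 and 0.475, 0.430 and 0.521 for C1qa, C1qb and C1qc. Control tumor 2 was kept in both sets of tumors. It stood above the mean of 8 tumors by 0.697, 0.649 and 0.661 log2 CPM for C1qa, C1qb and C1qc. Its macrophage score was -0.03. How far the lower r of the C1q genes rested on this tumor was not tested. Across the 3 libraries with high Rn45s shares the macrophage score ran from -0.873 to -0.03, below the other 5 tumors (-0.019 to 0.621). C3, Cfb, Serping1 and C3ar1 were also lower in those libraries without overlap. The part of this split in their r with the macrophage score was not tested. With the fibroblast marker score, r lay between 0.775 for C3ar1 and 0.966 for C4b, it was 0.898, 0.915 and 0.916 for C1qa, C1qb and C1qc, and 0 of 9 genes passed, as did 0% of all genes. Without photoconverted tumor 4 and control tumor 4 it stayed highest for C4b (0.909) and was 0.780, 0.793 and 0.842 for the C1q genes, but was 0.572 for C3, 0.406 for Cfb and 0.242 for C3ar1, whose values with this score rested on those tumors. The names macrophage C1q and stromal components come from known biology. Over these 8 tumors, control tumor 2 included, the macrophage score did not have its highest r with the C1q genes.

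By likeness over 8 tumors, the genes closest to C1qa were C1qc, C1qb and Fut11, the last at r = 0.978. Those closest to C3 were Rcan2 (r = 0.996), Serping1 (r = 0.995) and Ext1 (r = 0.993). Those closest to C5ar1 were Camk2a (r = 0.983), Ptgir (r = 0.981) and Nuak2 (r = 0.979), and no C1q gene was among them.

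Since Serping1 and C3ar1 moved with C3, the windows before C3 (chr17:57228137-57228386, 250 bases) and C3ar1 (chr6:122856162-122856407, 246 bases) are shown, both on the minus strand of GRCm38.p6 and from RefSeq. Serping1 had no window in the table.
C3: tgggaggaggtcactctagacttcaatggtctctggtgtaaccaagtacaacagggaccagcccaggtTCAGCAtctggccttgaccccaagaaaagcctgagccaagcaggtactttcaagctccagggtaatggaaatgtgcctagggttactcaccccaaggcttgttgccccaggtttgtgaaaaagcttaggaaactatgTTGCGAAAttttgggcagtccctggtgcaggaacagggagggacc
C3ar1: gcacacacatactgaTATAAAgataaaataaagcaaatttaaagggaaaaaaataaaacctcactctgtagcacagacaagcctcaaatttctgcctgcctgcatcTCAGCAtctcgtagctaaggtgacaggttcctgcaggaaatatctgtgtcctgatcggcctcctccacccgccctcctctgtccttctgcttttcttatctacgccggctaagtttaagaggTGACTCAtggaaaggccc
Capitals again mark all matches, none of which overlapped another. C3 held a C/EBP motif (TTGCNNAA) at 45 bases before its start, found in 9.55% of windows of 250 bases, and a MAF motif on the other strand at 182 bases. C3ar1 held an AP-1 motif (TGANTCA) at 22 bases, a MAF motif on the other strand at 144 bases and the letters of a TATA box (TATAAA) at 235 bases, found in 6.80%, 15.6% and 12.9% of windows of 246 bases. The MAF motif was the 1 motif found in C1qb, C3 and C3ar1 alike. The other motifs searched were NF-kB (GGGA, any 2 bases, T, any base and CC, in 3.23% of windows of 250 bases), STAT (TTCNNNGAA, 7.18%) and IRF (GAAA, any 2 bases and GAAA, 3.04%), with no match in the 4 windows printed.

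Per length of exon, the mean levels of the C1q genes stood above those of the components, and these above those of the receptors. The mean level was 159 ± 51.4 CPM per kilobase of exon for C1qa, 141 ± 45.7 for C1qb and 66.5 ± 22.7 for C1qc (SD, n = 8). It was 42.1 ± 12.0 for Cfb, 34.1 ± 20.9 for C3, 25.5 ± 12.2 for C4b and 23.7 ± 13.9 for Serping1. The receptors followed at 13.7 ± 4.77 CPM per kilobase for C3ar1 and 10.4 ± 3.28 for C5ar1. Neighbors in this order were compared within tumors by exact sign-flip permutation tests adjusted over 8 pairs. C1qa exceeded C1qb, C1qb exceeded C1qc and C1qc exceeded Cfb in 8 of 8 tumors (adjusted p = 0.0208 each), and Serping1 exceeded C3ar1 in 7 of 8 (adjusted p = 0.0469). The first 3 of these held when any tumor was left out (largest adjusted p = 0.0417, exact permutation), whereas Serping1 over C3ar1 held in 1 of 8 such settings (largest adjusted p = 0.0938), without photoconverted tumor 4. Cfb and C3 (adjusted p = 0.0729), C3 and C4b (0.125), C4b and Serping1 (0.266) and C3ar1 and C5ar1 (0.0729) did not pass the test. The level of C1qc depended on its gene model, though not its place: with its longest transcript of 1203 bases in place of the 1931 bases of all its exons, its mean level was 107 ± 36.4 CPM per kilobase. Serping1 (31.2 ± 18.3) stood above C4b (27.0 ± 12.9) by the longest transcripts and below it by all exons.

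**Figure D5:**
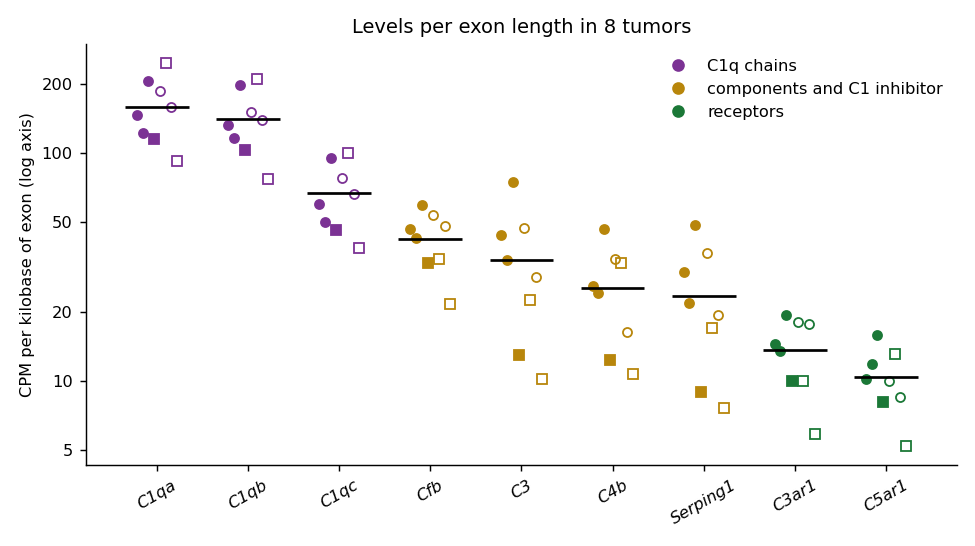
CPM per kilobase of exon of each gene in the 8 tumors on a log axis, with filled symbols for photoconverted and open symbols for control tumors, squares for libraries with an Rn45s share of 10% or more and lines at the mean of 8 tumors. Levels run from a mean of 159 for C1qa down to 10.4 for C5ar1.

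The rest of the complement system was read from a list of 46 further genes, of which 44 were in the table and 27 were tested. None of the 27 was called (0% of all genes), and none had groups without overlap (1.33% of all genes). The fold change was above 0 for 18 (46.8% of all genes) and below for 9. Its median was 0.10 on the log2 scale against -0.01 over all genes tested. Of the protease genes, which encode forms of C1r and C1s, C2 and factor D, 7 of 7 in the table were tested. Cfp, which encodes properdin, the stabilizer of the alternative pathway, was at 52.0 ± 22.5 against 45.5 ± 15.8 CPM. Of the genes for the lectin pathway 2 of 8 were tested, and of those for the terminal pathway 3 of 7. Mbl1, which encodes a mannose-binding lectin, had no count in any tumor. Clu, which encodes the terminal pathway inhibitor clusterin, had the smallest unadjusted p of the list (0.0438), at 82.9 ± 10.9 against 66.6 ± 7.77 CPM (SD, n = 4) and a log2 fold change of 0.31 (SE 0.13, edgeR adjusted p = 0.999). Its values were 81.7, 86.6, 94.6 and 68.6 CPM after photoconversion against 73.3, 56.1, 71.5 and 65.6 CPM in the controls, so that photoconverted tumor 4 lay within the control range.

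The other 5 genes with the smallest p were Masp1 (log2 fold change -0.37), Cfd (0.89), C1rb (0.31), C8g (-0.43) and C1ra (0.26). Cfd, which encodes factor D, the protease that cleaves factor B, was measured at 5.23, 20.8, 32.9 and 7.04 CPM after photoconversion against 1.57, 12.3, 15.6 and 6.41 CPM in the controls. The photoconverted tumor was the higher in all 4 same-numbered pairs, a pairing that the labels do not state. The smallest exact sign-flip permutation p that 4 pairs allow is 0.125. The share of all genes with 4 of 4 pairs the same way was not computed. In the edgeR fit by blocks, the log2 fold change was 0.92 (SE 0.23, edgeR adjusted p = 0.564). Adipocytes make much factor D, and their markers summed to 16.5, 23.3, 33.6 and 9.43 CPM after photoconversion against 13.0, 13.0, 19.7 and 9.40 CPM in the controls. The part of adipocytes in the Cfd values was not tested. C1ra and C1rb, which encode copies of the C1r protease, had means of 93.4 ± 31.9 and 46.1 ± 12.5 CPM after photoconversion against 77.8 ± 27.1 and 37.1 ± 10.6 CPM in the controls.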

How the data were processed

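Bulk RNA-seq covered 8 tumors. The files deposited by the authors are a table of raw, unnormalized counts for each gene symbol and a table of normalized signal values that equaled the counts divided by size factors (0.416 to 1.77) and left out 4598 genes with at most 1 count. The submitters' processing notes name CASAVA, Trim Galore, FastQC, HISAT2, featureCounts, DESeq2 and the build mm10, without versions, and strand settings are not given in the sources used here. The paper names a TruSeq and the labels a SMARTER stranded total RNA kit. Groups and replicate numbers came from the sample titles.

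Counts were tested with edgeR 4.0.16 in R 4.3.3 (TMM, filterByExpr, glmQLFit, glmQLFTest), with Benjamini-Hochberg adjustment over 14468 genes at 0.05. Log2 CPM used a prior count of 2 and ratios a pseudocount of 0.5. Single values were compared by exact permutation, two-sided, over 70 arrangements of tumors, 256 or fewer sign flips or 40320 orders (SciPy 1.17.1, NumPy 2.4.6), and ratios and correlations were adjusted over all genes tested. Marker scores were means over 10 genes of log2 CPM minus each gene's mean. Exon lengths came from GENCODE (GRCm38). Alternatives were DESeq2 1.42.0, limma 3.58.1 on log2 of the normalized values plus 1, other scaling and filtering, the replicate block, Rn45s as a covariate or removed, the 5 tumors with an Rn45s share under 10%, C4a added to C4b, and leaving out each tumor.

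The labels state no pairing. Deviations from the group means correlated across genes between same-numbered tumors at r = 0.597, 0.107, 0.407 and 0.623 for numbers 1 to 4. Between differently numbered tumors r ran from -0.600 to 0.482. It was 0.482 for photoconverted tumor 3 with control tumor 1 and 0.455 for photoconverted tumor 1 with control tumor 3. These values do not settle whether the numbers mark pairs. Results by block or by same-numbered pairs therefore rest on an assumed pairing and are given as alternatives. Libraries within a group all differed by more than counting noise (smallest chi-square per degree of freedom 26.1). On simulated data with 200 genes changed 4-fold for the comparison of photoconverted and control tumors, edgeR recovered 177 with 6 false calls among 14356 genes. DESeq2 recovered 185 with 43 false calls among 14467 genes. A 4-fold change is larger than that of any of the 9 genes (log2 fold change of at most 0.61). The simulated counts also held no split by Rn45s share, so they do not show whether changes of the size seen here would be called. The genes named were the 9 listed, up to 6 further complement genes with the smallest p and 3 genes most like C1qa, C3 and C5ar1. Cfp, properdin, was named after its values were seen. The genes and lists were chosen with earlier results of these data known. Correlations with the Rn45s share are not given, since the shares fall into separate clusters.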

Additional observations from a re-analysis of the deposited data

Results flagged for a closer look

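Of 46 sets of 4 tumors examined for a value far from the other 3, 3 held one, where chance gives about 1 in 20, or 2.3. C8g, which encodes a chain of the terminal component C8, was at 2.49 CPM in photoconverted tumor 2, with the nearest photoconverted tumor at 1.02 CPM. The log2 ratio of C1qc to C1qa was -0.22 in photoconverted tumor 3, with the nearest at -0.41. In control tumor 2 the same ratio was -0.41, with the nearest at -0.37. The other 3 control tumors were all at -0.37, so that this gap is small in size.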

How the results depend on the processing

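In 81 values from other tests, scalings, filters, covariates and subsets and 72 values leaving out a tumor, none of the 9 genes passed an adjusted p of 0.05, and 3 and 9 values changed sign. The 3 came from the 5 tumors with an Rn45s share under 10%, with log2 fold changes of 0.04 for C1qb, -0.043 for Cfb and -0.18 for C3ar1. In the same tumors 1 of the 9 genes (C5ar1) had CPM ranges without overlap, as did 28.4% of all genes, 2 of 6 ratios to C1qa (C3 and C5ar1) did not overlap, as did 11.3% of all genes, and the ratio of C3ar1 to C1qa differed by -0.047. Without 1 tumor, log2 fold changes ran from -0.42 to 0.016 for C1qa, -0.30 to 0.17 for C1qb, -0.45 to 0.039 for C1qc, 0.16 to 1.01 for C3, -0.17 to 0.45 for C4b, -0.003 to 0.38 for Cfb, 0.01 to 0.90 for Serping1, -0.10 to 0.35 for C3ar1 and 0.13 to 0.53 for C5ar1. The signs of the C1q genes turned without control tumor 2, that of C1qb also without photoconverted tumor 4, those of C4b and C3ar1 without photoconverted tumor 3 or control tumor 4, and that of Cfb without control tumor 4. Between 1 and 2 of 6 ratios to C1qa were without overlap when a tumor was left out, with 2 without photoconverted tumor 4. Leaving out tumors can only narrow the ranges, so C5ar1 could not come to overlap in these settings or in the 5 tumors. Its lack of overlap there is no further support. Of the 27 further complement genes 18 were above 0 (46.8% of all genes), against 8 of 28 without photoconverted tumor 3 (46.0% of all genes). Over all genes, edgeR called 0, DESeq2 24, edgeR on the 5 tumors 42 and edgeR without photoconverted tumor 4 11. The replicate block changed no call among the 9 genes. By same-numbered pairs, the ratios of C3, C5ar1 and C1qb to C1qa were each higher after photoconversion in 4 of 4 pairs. Each had an exact sign-flip permutation p of 0.125, the smallest that 4 pairs allow, and the share of all genes was not computed. On deviations from the group means, 2 genes passed with C1qa, as did 0.546% of all genes. With the fibroblast score 1 gene passed, as did 0.753% of all genes. Without the 2 tumors farthest from the median 0 passed with C3 and 0 with the macrophage score, as did 0 of all genes, and the cause was not tested. Between 3 and 4 of 8 pairs of neighbors in level passed when a tumor was left out. The spread of ratios to C1qa in the 5 tumors was an alternative chosen after seeing the data. Depth limits genes of low count such as C8g and Masp1.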
